A study of Homo sapiens with 12 samples.

Results

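Semaphorins are secreted or membrane-bound guidance cues, plexins are the receptors that carry their signal into the cell, and neuropilins are co-receptors that hold secreted class 3 semaphorins and vascular endothelial growth factors at the membrane. Plexins act on small GTPases, so a semaphorin usually collapses or steers the actin-rich edge of an axon or a migrating cell. In the developing cerebellum, from which medulloblastoma (MB) arises, these genes guide granule cell precursors and their axons. The expression of this system was examined in MB cells under inhibition of class I histone deacetylases (HDAC).

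The members were taken from the annotation of the Human Genome U133 Plus 2.0 array: every probe set whose symbol began with SEMA3, SEMA4, SEMA5, SEMA6, SEMA7, PLXNA, PLXNB, PLXNC, PLXND or PLXDC, or was NRP1 or NRP2, antisense names excepted. The rule gave 94 of 54613 probe sets tested, which stand for 33 of 19775 genes. Another probe set carried SEMA3B beside a microRNA symbol and was left out. Of the 94, 26 end in _x_at or _s_at, which marks probes shared with other transcripts, and 7 genes had only 1 probe set. Probe sets of the same gene read overlapping RNA and are not independent of each other.

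HD-MB03 is an MB cell line with MYC amplification, grown in RPMI with fetal calf serum. It received 1 µM entinostat, an inhibitor of class I HDACs, or the solvent DMSO, and a label field calls the DMSO samples untreated. The 4 groups were entinostat 24 h, DMSO 24 h, entinostat 48 h and DMSO 48 h, with 3 arrays each, described in the study's methods as biological replicates of this cell line. Values are the deposited linear intensities, log2 fold changes are given with their standard error (SE), and a call is an adjusted p under 0.05 in limma over all probe sets. Array medians lay between 80.7 and 81.9, so an intensity near 80 is close to the middle of all probe sets and the lowest value is 36.7, so background appears to be left in. MYC stood at 11590 ± 249 in entinostat and 11260 ± 335 in DMSO at 24 h (SD, n = 3 each), and 6 of 9 group 3 MB markers lay above the array median in every group, while EOMES, NPR3 and MAB21L2 lay below it. Of those 9, 0 passed as higher and 3 as lower at 24 h, and 1 as higher and 3 as lower at 48 h. Each marker here was read from its probe set of the highest mean. GABRA5 (-1.78 at 24 h and -2.12 at 48 h, log2) and IMPG2 (-2.02 and -1.52) were lower at both times, OTX2 at 24 h (-0.22) and CRX at 48 h (-0.44), and MYC was higher at 48 h (0.17). Of 6 markers of the SHH subgroup of MB, 6 lay above the array median in entinostat 24 h and 3 in each other group. HHIP (0.77 and 0.56) and SFRP1 (0.40 and 0.31) were higher at both times, and BOC was lower (-0.70 and -0.69). Over all its probe sets HHIP ranged from 0.03 to 0.77 at 24 h and from -0.05 to 0.56 at 48 h. In the same order SFRP1 ranged from -0.15 to 0.40 and from 0.01 to 0.31. BOC ranged from -0.70 to -0.14 and from -0.69 to -0.01. Of 4 WNT subgroup markers, 2 lay above the median in entinostat 48 h and 1 in each other group. LEF1 was higher at both times (0.45 and 0.60) and WIF1 at 24 h (0.22). The 3 LEF1 probe sets ranged from -0.29 to 0.45 at 24 h and from -0.02 to 0.60 at 48 h. None of the 6 fibroblast, 4 endothelial or 3 astrocyte markers passed in limma at either time, with 0, 1 and 1 of them at an unadjusted p under 0.05 at 24 h and 1, 1 and 0 at 48 h. With each gene read from its probe set of the strongest effect, 1 of 3 astrocyte markers was lower at 24 h. With a trended and robust variance prior 1 astrocyte marker passed at 24 h. Of 3 microglia markers measured, 0 passed at 24 h (1 at an unadjusted p under 0.05, 0 with that prior) and CSF1R was higher at 48 h (86.3 ± 4.52 in entinostat, 70.9 ± 7.36 in DMSO). The 3-prime to 5-prime log2 difference of the ACTB control probes averaged -0.14 in entinostat and -0.07 in DMSO at 48 h with no overlap, at p = 0.1 in an exact two-sided permutation test, the smallest p that 3 against 3 arrays allow. For ACTB at 24 h and for GAPDH at 24 h and 48 h this test (exact permutation) gave p = 1, 0.6 and 0.3. The part of these marker and control values in the results was not tested.

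Entinostat changed this gene family in both directions, and the largest changes were at its co-receptor NRP2 and at a few ligands. NRP2 was higher at 48 h on all 11 of its probe sets, by 0.84 to 2.22 on the log2 scale. The arrays read RNA of whole cultures, so more cells with a transcript and more transcript per cell cannot be told apart. The secreted ligand SEMA3C was higher at both times. The membrane-bound ligands SEMA6D (4 of 5 probe sets) and SEMA4C and the receptor PLXNA2 were lower at both times. The receptor PLXNA4 was lower on 1 of 4 probe sets at 24 h and on 2 of 4 at 48 h. NRP1, PLXNC1 and most probe sets of low intensity passed at neither time.

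At 24 h, 22 of the 94 probe sets were higher and 18 lower in entinostat than in DMSO, which is 23.4% and 19.1% of them. Over all probe sets 12.8% were called higher and 12.4% lower. At 48 h, 27 members were higher and 14 lower, or 28.7% and 14.9%, where the whole array had 12.9% and 13.2%. With NRP2 set aside, the other 83 probe sets gave 19 higher and 18 lower calls at 24 h, then 16 higher and 14 lower calls at 48 h. Counted by gene, with each gene read from its probe set of the highest mean, 10 of 33 were higher and 7 lower at 24 h, against 18.2% and 15% of all genes. By gene at 48 h, 8 were higher and 7 lower, against 17.3% and 16.6% of all genes. The members' median size of change (absolute log2) was 0.24 at 24 h and 0.16 at 48 h, beside 0.11 over all probe sets at both times.

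Bright probe sets passed more often than dim ones, among the members and over the array. Of the 42 members with a mean log2 intensity under 6.5, 11 were called at 24 h and 7 at 48 h, where 9.18% and 9.23% of all such probe sets were called. From 8 upward, 10 of 12 members were called at 24 h and 11 of 12 at 48 h, where all probe sets had 51.9% and 54.1%. Between 6.5 and 7 the members were called 6 times of 23 at 24 h and 10 times of 23 at 48 h, where all probe sets of that range had 31.5% and 33.2%. Between 7 and 8, 13 of 17 were called at each time, where all had 47.3% and 48.8%.

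**Figure D1:**
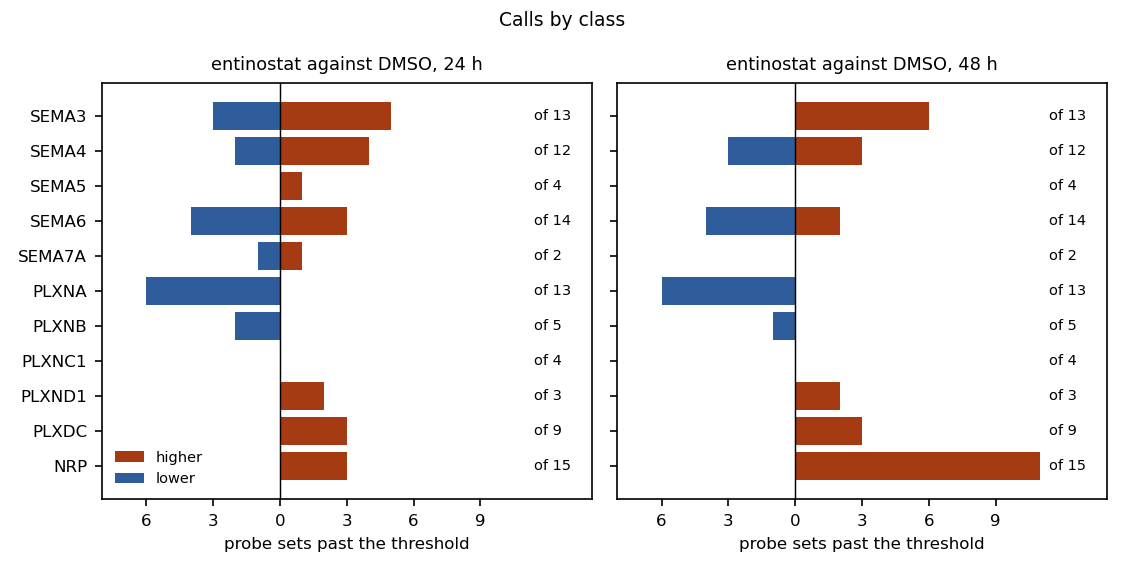
Number of probe sets past the limma threshold by class at 24 h and 48 h, entinostat against DMSO. Bars to the right count higher probe sets, bars to the left count lower ones, and the text at the right edge gives the probe sets of the class. PLXNA holds lower calls only, 6 of 13 at each time, while NRP holds higher calls only, 3 of 15 at 24 h and 11 of 15 at 48 h.

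Calls at the 2 times overlapped. Of the 40 probe sets called at 24 h, 29 were called at 48 h as well, which is 72.5% of the calls at 24 h and 70.7% of the 41 calls at 48 h. All 29 kept their direction, 17 higher and 12 lower. The log2 fold changes of the 2 times correlated at r = 0.776 across the 94 probe sets and at r = 0.853 across all probe sets, a description over features that share arrays within a time. The times themselves did not share DMSO arrays.

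**Figure D2:**
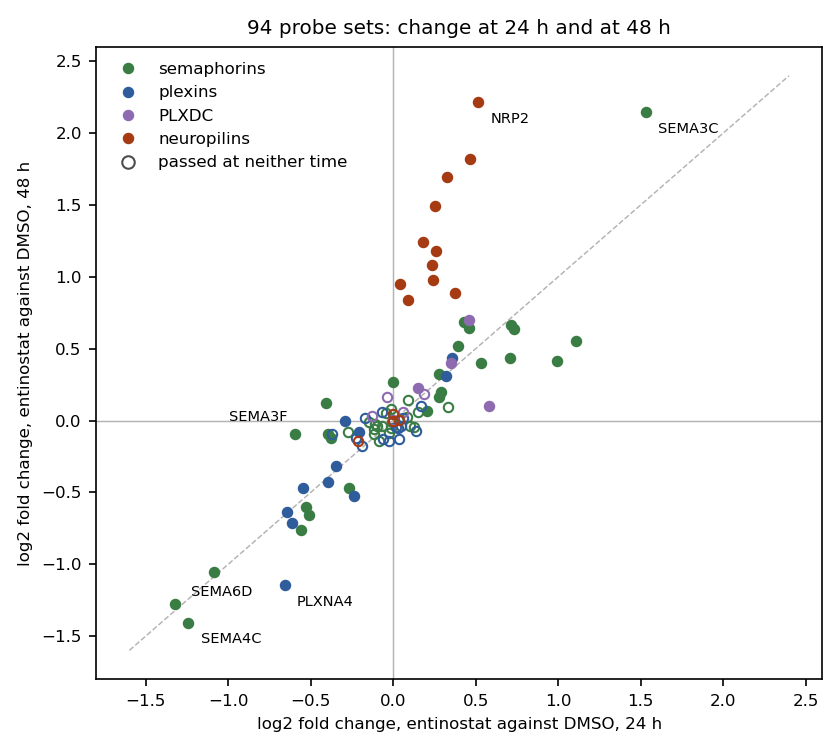
Log2 fold change of each of the 94 probe sets, entinostat against DMSO, at 24 h (x axis) and at 48 h (y axis), coloured by family. Filled points passed at 24 h, at 48 h or at both, open points at neither, and the dashed line marks equal change. The NRP2 probe sets stand above the line, at 0.04 to 0.52 at 24 h and 0.84 to 2.22 at 48 h.

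Among the secreted class 3 ligands, 5 of 13 probe sets were higher and 3 lower at 24 h, and 6 were higher and 0 lower at 48 h. SEMA3C, a ligand of NRP1, NRP2 and PLXND1, read 296, 248 and 225 on the entinostat arrays at 24 h (probe set 203789_s_at), against 67.5, 142 and 71.2 on the DMSO arrays. By 48 h it read 313, 422 and 323 in entinostat and 87.8, 80.7 and 69.7 in DMSO. Every entinostat array stood above every DMSO array at both times, and the DMSO array of replicate 2 at 24 h stood above the other DMSO arrays. On the log2 scale the change was 1.53 ± 0.24 at 24 h and 2.15 ± 0.24 at 48 h, with adjusted p = 3.43e-04 and 1.99e-05 in that order, or linear folds of 2.89 and 4.42. Leaving out each array in turn gave 1.34 to 1.88 at 24 h. The second SEMA3C probe set, 203788_s_at, lay between 57.6 and 96.5 and had log2 fold changes of 0.40 and 0.52, both called. Its call at 24 h was lost with a block for the replicate number, and without entinostat 24 h replicate 1 or 3 or DMSO 24 h replicate 1 or 3.

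SEMA3F, the class 3 ligand that binds NRP2 most tightly, moved the other way and was called only at 24 h. Probe set 35666_at read 1564, 1530 and 1483 in entinostat and 2212, 2276 and 2418 in DMSO at 24 h. After 48 h it read 2034, 2214 and 2189 in entinostat, against 2290, 2039 and 2560 in DMSO. The groups were apart at 24 h and overlapped at 48 h. Its log2 fold change was -0.59 ± 0.08 at 24 h and -0.09 ± 0.08 at 48 h, with adjusted p = 8.23e-05 and 0.456 in that order. The 2 times differed by 0.50 ± 0.11 (interaction, adjusted p = 0.049), a call that was lost when any single array other than DMSO 48 h replicate 3 was left out. The other SEMA3F probe sets, 206832_s_at and 209730_at, fell by 0.38 and 0.40 at 24 h, and at 48 h had values of -0.13 and -0.10 that did not pass. Their interactions of 0.25 and 0.30 did not pass (limma adjusted p = 0.454 and 0.217).

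SEMA3A, the first known axon repellent of the class, was higher on 2 of 3 probe sets at both times, with log2 fold changes of 0.43 and 0.69 on 206805_at. SEMA3G, another ligand of NRP2, was higher by 0.71 ± 0.07 at 24 h and 0.43 ± 0.07 at 48 h. SEMA3D was called on 1 of 2 probe sets and only at 48 h (215643_at, 0.27), at intensities of 41.1 to 56.8. It lost the call with a block for the replicate number, and without entinostat 48 h replicate 1, 2 or 3 or DMSO 48 h replicate 2 or 3. The single probe sets of SEMA3B and SEMA3E passed at neither time, and neither reached an unadjusted p under 0.05.

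The membrane-bound class 4 ligands gave 4 higher and 2 lower of 12 probe sets at 24 h, with 3 in each direction at 48 h. SEMA4C, a ligand of PLXNB2, read 211, 198 and 231 in entinostat at 24 h (46665_at), against 480, 487 and 545 in DMSO. At 48 h its intensities were 208, 214 and 215 in entinostat and 502, 587 and 606 in DMSO. Every entinostat array lay far below every DMSO array, with no overlap at either time. SEMA4C fell by 1.24 ± 0.08 at 24 h and by 1.41 ± 0.08 at 48 h on the log2 scale, with adjusted p = 3.41e-07 and 1.09e-07 in that order, which leaves 0.423 and 0.377 times the DMSO level. The second SEMA4C probe set, 219039_at, was lower too, at -0.51 and -0.66.

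SEMA4F, a ligand found in the nervous system, changed on 2 of 3 probe sets. On 228660_x_at it read 297, 309 and 301 in entinostat and 137, 134 and 149 in DMSO at 24 h. The same probe set read 204, 226 and 223 in entinostat at 48 h, against 137, 147 and 160 in DMSO. The entinostat arrays were above the DMSO arrays at both times, and lower at 48 h than at 24 h. The log2 fold change was 1.11 ± 0.07 at 24 h and 0.56 ± 0.07 at 48 h, with adjusted p = 1.98e-07 and 4.99e-05 in that order, and the 2 times differed by -0.55 ± 0.10 (interaction, adjusted p = 0.0219), a call lost without entinostat 24 h replicate 2 or 3, DMSO 24 h replicate 1 or 2, entinostat 48 h replicate 1 or DMSO 48 h replicate 2 or 3.

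On SEMA4F 210124_x_at the intensities were 327, 359 and 335 in entinostat and 169, 171 and 172 in DMSO at 24 h. They were 230, 247 and 243 in entinostat and 177, 175 and 187 in DMSO at 48 h. Again the groups were apart at both times, and the gap was smaller at 48 h. The log2 fold changes were 0.99 ± 0.05 and 0.42 ± 0.05, and the interaction was -0.58 ± 0.08 (adjusted p = 0.00549). The third SEMA4F probe set, 208124_s_at, had values of 0.15 and 0.06 and passed at neither time. Both changed probe sets carry the _x_at ending, so hybridisation of other transcripts to them cannot be told apart from SEMA4F.

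SEMA4B was higher at both times (0.46 ± 0.11 and 0.65 ± 0.11). SEMA4D, the ligand of PLXNB1, had -0.27 at 24 h, which did not pass, and was called lower at 48 h (-0.47 ± 0.16 on 203528_at, adjusted p = 0.0478). That call was lost with 30 subtracted from every intensity and with a block for the replicate number. It was also lost without entinostat 24 h replicate 3, DMSO 24 h replicate 2 or 3, entinostat 48 h replicate 1 or 2 or DMSO 48 h replicate 1 or 2. SEMA4G was higher on 1 of 2 probe sets at 24 h (0.29, lost without entinostat 24 h replicate 3 or DMSO 24 h replicate 1, 2 or 3) and not called at 48 h (0.20). Of the 2 SEMA4A probe sets, 0 passed at either time in limma, 0 at an unadjusted p under 0.05 and 0 with a trended and robust prior.

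Class 5 ligands carry thrombospondin repeats beside the sema domain. SEMA5B read 186, 140 and 198 in entinostat and 126, 104 and 130 in DMSO at 24 h (223610_at). At 48 h it read 158, 153 and 187 in entinostat and 102, 150 and 128 in DMSO. The groups did not overlap at either time, though at 48 h the highest DMSO array, replicate 2, came close to the lowest entinostat array. On the log2 scale the change was 0.53 ± 0.16 at 24 h (adjusted p = 0.024, lost without entinostat 24 h replicate 1 or 3 or DMSO 24 h replicate 2) and 0.40 ± 0.16 at 48 h (adjusted p = 0.0833). The 3 probe sets of SEMA5A, a ligand of PLXNB3, passed at neither time, nor at an unadjusted p under 0.05.

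The transmembrane class 6 ligands, which signal to class A plexins, split by gene. SEMA6D, a ligand of PLXNA1, was lower on 4 of 5 probe sets at both times, and SEMA6A was higher on 3 of 5 at 24 h and 2 of 5 at 48 h. On SEMA6D 226492_at the intensities were 331, 335 and 361 in entinostat, against 710, 839 and 1056 in DMSO at 24 h. They were 428, 483 and 448 in entinostat at 48 h, against 943, 1174 and 1196 in DMSO. The groups did not overlap at either time, and the DMSO arrays spread more widely than the entinostat arrays. SEMA6D fell by 1.33 ± 0.13 at 24 h and by 1.28 ± 0.13 at 48 h on the log2 scale, with adjusted p = 7.38e-06 and 8.84e-06 in that order.

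The SEMA6D probe set 233882_s_at read 145, 163 and 176 in entinostat and 291, 323 and 422 in DMSO at 24 h. It read 214, 241 and 204 in entinostat and 358, 530 and 497 in DMSO at 48 h. Again no entinostat array reached the DMSO arrays. The log2 fold changes were -1.09 ± 0.16 and -1.05 ± 0.16. The probe sets 233801_s_at (-0.56 and -0.76) and 220574_at (-0.53 and -0.60) were lower as well. The call of 233801_s_at at 24 h was lost without entinostat 24 h replicate 1 or DMSO 24 h replicate 2 or 3, and that of 220574_at without entinostat 24 h replicate 1 or 2 or DMSO 24 h replicate 1 or 3. The fifth, 244746_at, had -0.27 and -0.08 and did not pass.

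SEMA6A, a ligand of PLXNA2 and PLXNA4, was higher by 0.71 ± 0.07 at 24 h and 0.67 ± 0.07 at 48 h on 223449_at, and by 0.73 ± 0.09 and 0.64 ± 0.09 on 225660_at. Another probe set, 215028_at, was called at 24 h only (0.20) and lost that call without entinostat 24 h replicate 2 or 3 or DMSO 24 h replicate 1, 2 or 3. The 3 probe sets of SEMA6B and the 1 of SEMA6C passed at neither time, with 1 SEMA6B probe set at an unadjusted p under 0.05 at 24 h.

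SEMA7A is anchored in the membrane by a lipid and binds PLXNC1 and integrins. Its probe sets were called in opposite directions at 24 h. On 210083_at it read 70.0, 68.3 and 71.1 in entinostat and 91.4, 89.1 and 98.1 in DMSO at 24 h, and 90.1, 83.2 and 81.9 in entinostat and 78.3, 87.2 and 69.5 in DMSO at 48 h. On 230345_at it read 128, 111 and 111 in entinostat and 91.5, 98.3 and 99.2 in DMSO at 24 h, and 108, 109 and 115 in entinostat and 99.2, 99.1 and 97.7 in DMSO at 48 h. At 24 h the entinostat arrays lay wholly below the DMSO arrays on the first and wholly above them on the second. The log2 fold changes at 24 h were -0.41 ± 0.08 (adjusted p = 0.00148) and 0.28 ± 0.06 (adjusted p = 0.00556). At 48 h they were 0.12 and 0.17, and neither passed. The interaction of 210083_at was 0.53 ± 0.11 (adjusted p = 0.0394), lost when any single array other than DMSO 48 h replicate 2 was left out, and no direction is given for SEMA7A.

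**Figure D3:**
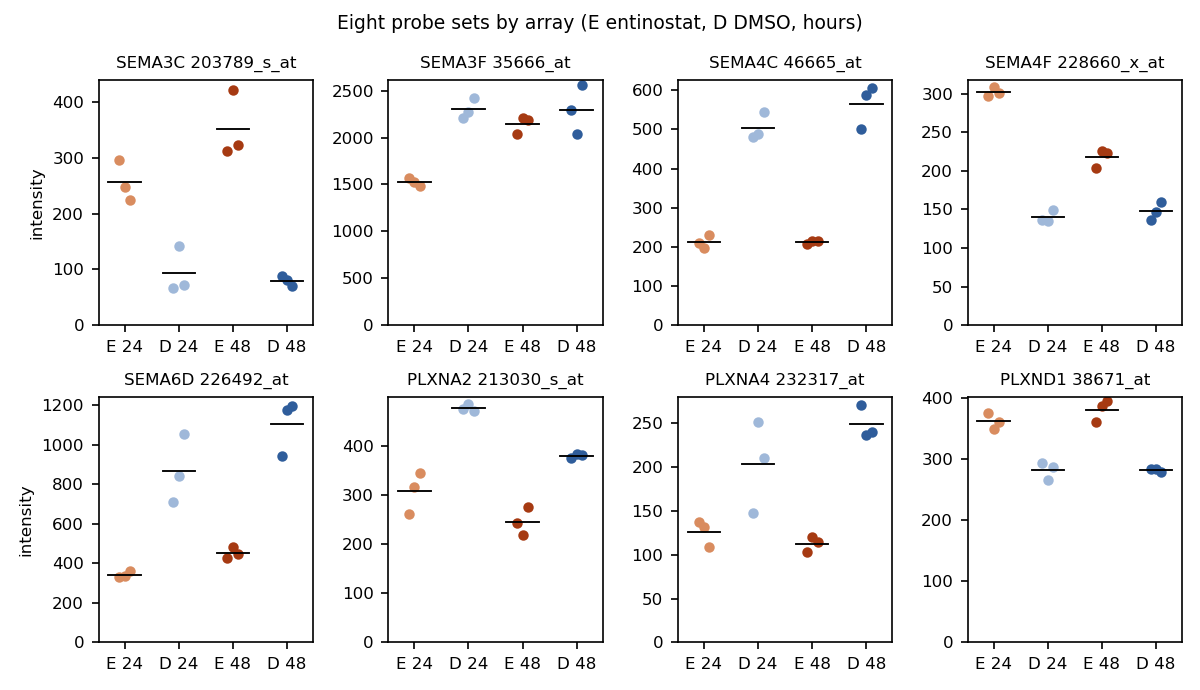
Intensity of 8 probe sets on each of the 12 arrays, with a bar at the mean of each group (linear axes from 0). Each is the probe set of its gene with the largest absolute log2 fold change at 24 h, and other probe sets can differ. E is entinostat and D is DMSO, followed by the hours of treatment. On these probe sets SEMA3C, SEMA4F and PLXND1 are higher in entinostat at both times, and SEMA4C, SEMA6D, PLXNA2 and PLXNA4 are lower. SEMA3F is called lower at 24 h only.

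Class A plexins are the signalling partners of neuropilins and the direct receptors of class 6 semaphorins. None of their 13 probe sets was higher at either time, and 6 were lower at each. PLXNA2 was lower on all 3 of its probe sets at both times. Probe set 213030_s_at read 261, 318 and 346 in entinostat and 476, 486 and 473 in DMSO at 24 h. It read 243, 220 and 277 in entinostat, against 376, 384 and 382 in DMSO at 48 h. The groups did not overlap at either time, and the means of both entinostat and DMSO were lower at 48 h than at 24 h. PLXNA2 fell by 0.64 ± 0.10 at 24 h and by 0.63 ± 0.10 at 48 h on the log2 scale, with adjusted p = 3.31e-04 and 3.36e-04 in that order. The other 2 probe sets had -0.61 and -0.71 (227032_at) and -0.55 and -0.47 (207290_at).

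PLXNA4, a receptor for SEMA3A and SEMA6A, read 138, 132 and 109 in entinostat at 24 h (232317_at), against 147, 251 and 211 in DMSO. By 48 h it read 103, 120 and 115 in entinostat and 271, 237 and 240 in DMSO. The groups did not overlap at either time, and at 24 h the DMSO array of replicate 1 lay close to the entinostat arrays. Its log2 fold change was -0.66 ± 0.16 at 24 h and -1.15 ± 0.16 at 48 h, with adjusted p = 0.00756 and 1.26e-04 in that order, and the interaction of -0.49 ± 0.22 did not pass (adjusted p = 0.388). A second probe set, 228104_at, was lower at 48 h only (-0.53), and the other 2 passed at neither time.

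PLXNA1, a receptor for SEMA6D, was lower at both times on 221538_s_at (-0.39 ± 0.11 and -0.43 ± 0.11), with the call at 24 h lost without entinostat 24 h replicate 1 or 3 or DMSO 24 h replicate 2 and that at 48 h without DMSO 48 h replicate 3. On 1558140_at it was lower at 24 h only (-0.21, lost without entinostat 24 h replicate 3 or DMSO 24 h replicate 1 or 3), and 221537_at had -0.37 and -0.09, neither past the threshold. The 3 probe sets of PLXNA3 passed at neither time in limma, with 0 at an unadjusted p under 0.05 at 24 h and 1 at 48 h.

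Class B plexins receive class 4 semaphorins and bind guanine nucleotide exchange factors. PLXNB2, the receptor of SEMA4C, read 240, 249 and 259 in entinostat and 270, 349 and 338 in DMSO at 24 h (208890_s_at). After 48 h it read 297, 257 and 288 in entinostat and 340, 354 and 353 in DMSO. The groups were apart at both times. PLXNB2 fell by 0.35 ± 0.09 at 24 h and by 0.32 ± 0.09 at 48 h on the log2 scale, with adjusted p = 0.0121 and 0.0188 in that order, calls lost without DMSO 24 h replicate 2 or 3 at 24 h and without entinostat 48 h replicate 2 or DMSO 48 h replicate 2 or 3 at 48 h. The other PLXNB2 probe set, 211472_at, had 0.05 and -0.04 at intensities of 61.2 to 71.5. PLXNB1 was lower on 1 of 2 probe sets at 24 h (215807_s_at, -0.29) and on 0 at 48 h, and PLXNB3 did not pass at either time, nor at an unadjusted p under 0.05.

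PLXNC1, the receptor of SEMA7A, was called in limma on 0 of 4 probe sets at either time, also at an unadjusted p under 0.05 and with a trended and robust prior. Its probe set 235328_at read 108, 115 and 120 in entinostat and 110, 129 and 97.8 in DMSO at 24 h. It read 106, 106 and 115 in entinostat and 129, 114 and 114 in DMSO at 48 h, and the groups overlapped at both times.

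PLXND1, the receptor of SEMA3E and a partner of neuropilins for SEMA3C, was higher on 2 of 3 probe sets at both times. Probe set 38671_at read 376, 350 and 362 in entinostat and 294, 267 and 288 in DMSO at 24 h. It read 362, 387 and 395 in entinostat and 284, 285 and 278 in DMSO at 48 h. Every entinostat array stood above every DMSO array. The log2 fold change was 0.36 ± 0.06 at 24 h and 0.43 ± 0.06 at 48 h, with adjusted p = 3.80e-04 and 7.62e-05 in that order. Probe set 212235_at gave 0.32 and 0.31, and 1563657_at, which did not pass, gave 0.02 and -0.05.

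PLXDC1 and PLXDC2 are membrane proteins with a plexin repeat that were first described in tumour endothelium. PLXDC2 was higher on 2 of 6 probe sets at 24 h and 3 of 6 at 48 h, with 0.46 and 0.70 on 227276_at, the first lost without entinostat 24 h replicate 3 or DMSO 24 h replicate 2 or 3. On 236297_at the change was called at 48 h only (0.23) and lost without entinostat 48 h replicate 1 or 2 or DMSO 48 h replicate 1 or 3. PLXDC1 read 95.8, 100 and 101 in entinostat and 113, 109 and 104 in DMSO at 24 h (240963_x_at). At 48 h it read 103, 102 and 106 in entinostat and 107, 94.5 and 103 in DMSO. The entinostat arrays lay below the DMSO arrays at 24 h and overlapped them at 48 h, and the log2 fold changes of -0.13 and 0.03 did not pass. Another PLXDC1 probe set, 219700_at, was higher at 24 h (0.58) and had 0.10 at 48 h, which did not pass.

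Neuropilins have short cytoplasmic tails and lend their ligands to plexins and to VEGF receptors. The promoter window of NRP2 is shown with those of SEMA4C and PLXNA2, 2 genes that were lower at both times on all their probe sets, because each has 1 start in the promoter table. Each window holds the 250 bases before a start listed by RefSeq (GRCh38.p14), at chr2:205682251-205682500 on the plus strand, chr2:96870081-96870330 on the minus strand and chr1:208244385-208244634 on the minus strand. The SEMA4C window lies inside the listed span of the gene (96859718 to 96870830), so its start is an internal one. Capitals mark the GC box GGGCGG, searched on both strands, so that CCGCCC marks it on the other strand, and the run CCGCCCCGCCC in NRP2 is a pair that shares a base.
NRP2: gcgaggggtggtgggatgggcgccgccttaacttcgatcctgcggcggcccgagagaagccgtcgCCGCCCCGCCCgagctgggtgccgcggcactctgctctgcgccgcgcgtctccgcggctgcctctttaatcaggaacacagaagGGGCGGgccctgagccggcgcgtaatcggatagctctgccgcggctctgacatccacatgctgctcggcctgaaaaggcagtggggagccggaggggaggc
SEMA4C: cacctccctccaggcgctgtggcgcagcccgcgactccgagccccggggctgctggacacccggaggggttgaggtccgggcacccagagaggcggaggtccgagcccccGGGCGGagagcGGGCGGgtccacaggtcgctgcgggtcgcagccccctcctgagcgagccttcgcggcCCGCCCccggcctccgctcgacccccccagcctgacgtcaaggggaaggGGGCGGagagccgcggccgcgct
PLXNA2: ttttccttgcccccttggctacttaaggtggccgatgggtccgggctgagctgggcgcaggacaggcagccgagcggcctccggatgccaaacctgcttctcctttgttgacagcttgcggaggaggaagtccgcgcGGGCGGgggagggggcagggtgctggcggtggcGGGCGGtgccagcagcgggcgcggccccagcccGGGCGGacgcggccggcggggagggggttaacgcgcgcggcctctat
The NRP2 window held 1 GC box on its own strand and 2 on the other, that of SEMA4C 3 and 1, and that of PLXNA2 3 and 0. None of the 3 windows held the E-box CACGTG. Promoter windows were found for 28 of the 33 genes, 49 windows in all, of which 61.2% held a GC box, where 42.6% of all 35116 windows did. The E-box stood in 6.12% of the member windows and 6.34% of all windows, and the CCAAT box (letters CCAAT, either strand) in 22.4% of the member windows and 32% of all windows. These matches describe the sequence and were not tested as binding sites.

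NRP2 at chromosome 2 (GRCh38.p14, 205682501 to 205798131) was read by 11 probe sets. On 222877_at it read 497, 516 and 430 in entinostat and 344, 376 and 293 in DMSO at 24 h. By 48 h it read 1610, 1604 and 1514 in entinostat and 359, 337 and 321 in DMSO. The entinostat arrays stood a little above the DMSO arrays at 24 h and far above them at 48 h, while the DMSO arrays of 48 h lay within the range of those of 24 h. On the log2 scale the change was 0.52 ± 0.09 at 24 h and 2.22 ± 0.09 at 48 h, with adjusted p = 0.00107 and 8.92e-09 in that order, or linear folds of 1.43 and 4.65. The 2 times differed by 1.70 ± 0.13 (interaction, adjusted p = 3.31e-04).

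Probe set 219367_s_at read 210, 240 and 185 in entinostat and 153, 178 and 175 in DMSO at 24 h. It read 609, 529 and 587 in entinostat and 186, 165 and 182 in DMSO at 48 h. The groups were apart at both times, with changes of 0.33 (adjusted p = 0.0275, lost without entinostat 24 h replicate 1 or 2 or DMSO 24 h replicate 1) and 1.69. On 228699_at the intensities were 245, 229 and 226 in entinostat and 186, 198 and 132 in DMSO at 24 h, and 540, 523 and 456 in entinostat and 168, 106 and 165 in DMSO at 48 h. The change was 0.47 at 24 h, which did not pass, and 1.82 at 48 h. On 223510_at they were 121, 107 and 99.8 in entinostat and 88.4, 92.9 and 93.1 in DMSO at 24 h, and 249, 291 and 233 in entinostat and 94.2, 92.8 and 87.0 in DMSO at 48 h. Here the change was 0.25 at 24 h (adjusted p = 0.0513) and 1.49 at 48 h.

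Probe set 214632_at read 266, 229 and 197 in entinostat and 207, 212 and 188 in DMSO at 24 h, and 548, 389 and 442 in entinostat and 196, 174 and 208 in DMSO at 48 h. The groups overlapped at 24 h and were apart at 48 h, with a change of 1.25 ± 0.13 at 48 h. Probe set 211844_s_at read 153, 147 and 134 in entinostat and 132, 121 and 110 in DMSO at 24 h, and 280, 245 and 268 in entinostat and 123, 111 and 115 in DMSO at 48 h. Its change was 0.26 at 24 h (adjusted p = 0.0312, lost without entinostat 24 h replicate 1 or 2 or DMSO 24 h replicate 2 or 3) and 1.18 at 48 h. Probe set 210841_s_at read 192, 214 and 193 in entinostat and 180, 176 and 155 in DMSO at 24 h, and 332, 255 and 368 in entinostat and 162, 139 and 146 in DMSO at 48 h. Its change was 0.23 at 24 h, which did not pass, and 1.08 at 48 h.

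Probe set 225566_at read 622, 617 and 536 in entinostat and 509, 548 and 445 in DMSO at 24 h, and 1169, 840 and 896 in entinostat and 520, 468 and 475 in DMSO at 48 h. The groups overlapped at 24 h and not at 48 h, where the change was 0.98 ± 0.12, and the interaction of 0.73 ± 0.17 did not pass (adjusted p = 0.0577). On 229225_at the intensities were 223, 294 and 257 in entinostat and 270, 244 and 235 in DMSO at 24 h, and 594, 449 and 535 in entinostat and 280, 259 and 274 in DMSO at 48 h. The groups overlapped at 24 h (0.04) and were apart at 48 h (0.95). On 1555468_at they were 75.9, 84.5 and 91.5 in entinostat and 82.5, 74.5 and 79.4 in DMSO at 24 h, and 138, 148 and 144 in entinostat and 80.4, 77.8 and 82.4 in DMSO at 48 h. The change was 0.09 at 24 h and 0.84 at 48 h. The last, 210842_at, lay between 84.2 and 218 and had 0.37 at 24 h, which did not pass, and 0.89 at 48 h.

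In all, 3 of 11 NRP2 probe sets were called higher at 24 h and 11 of 11 at 48 h. The entinostat arrays lay wholly above the DMSO arrays on 6 of 11 probe sets at 24 h and on 11 of 11 at 48 h, where 17.4% of all probe sets did so at 24 h and 17.4% at 48 h. The log2 fold change at 48 h ranged over the probe sets from 0.84 to 2.22, so the size depends on which is read. The 4 endothelial markers, of a cell type that expresses neuropilins, summed to 298 to 304 in entinostat and 281 to 304 in DMSO at 24 h, and to 294 to 305 in entinostat and 288 to 292 in DMSO at 48 h. Their mean intensities were at most 90.3, and CDH5 averaged 54.2 ± 2.26 in entinostat and 51.4 ± 4.84 in DMSO at 48 h.

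**Figure D4:**
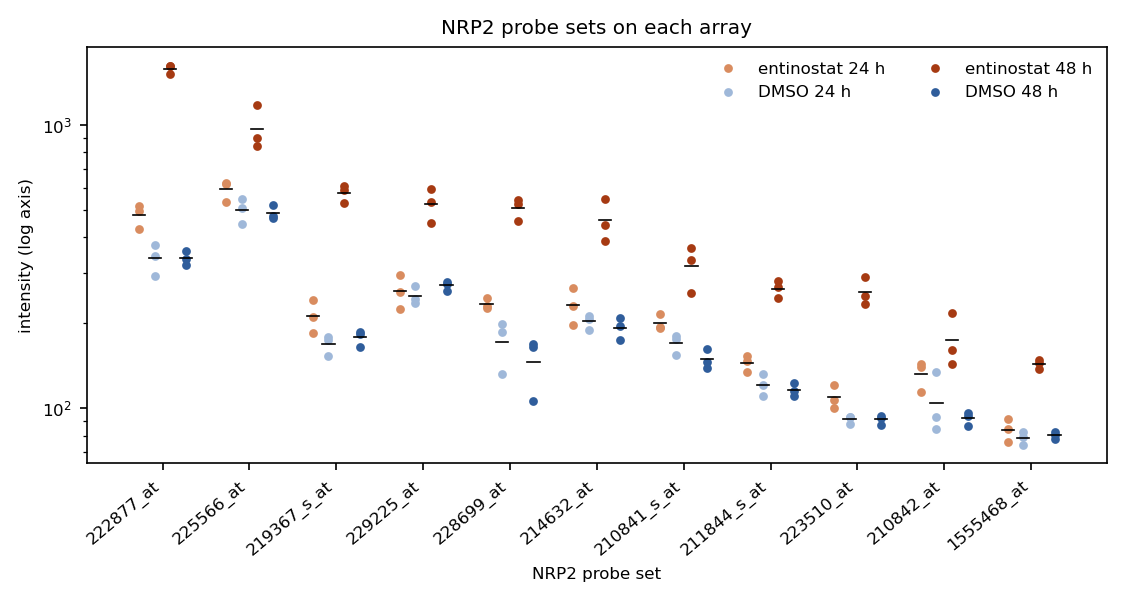
Intensity (log axis) of the 11 NRP2 probe sets on each of the 12 arrays, with a bar at the mean of each group, probe sets ordered by their mean in entinostat at 48 h. At 48 h every entinostat array stands above every DMSO array on all 11, and at 24 h on 6 of 11.

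NRP1, the co-receptor of SEMA3A, was called in limma on 0 of 4 probe sets at either time, also at an unadjusted p under 0.05 and with a trended and robust prior. Its intensities lay between 41.5 and 79.7, and its log2 fold changes between -0.22 and 0.03 at 24 h. On 210510_s_at every entinostat array lay below every DMSO array at 24 h (77.6, 54.0 and 74.2 in entinostat, 77.8, 78.6 and 79.7 in DMSO), and the groups overlapped at 48 h.

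The treatment effect itself differed between the times on 13 of the 94 probe sets, 11 higher and 2 lower at 48 h than at 24 h, or 11.7% and 2.13%. The 13 became 6 with 30 subtracted from every intensity, 6 without DMSO 24 h replicate 1, 7 without entinostat 24 h replicate 2 or 3, and 8 without DMSO 24 h replicate 2, entinostat 48 h replicate 1 or DMSO 48 h replicate 2. Over all probe sets 0.562% were called higher and 0.646% lower in this interaction. Of the 13, 9 were NRP2, 2 were SEMA4F and the others were SEMA3F and SEMA7A. By gene, SEMA3F was the higher and SEMA4F the lower of 33. Within entinostat, 13 members were higher and 3 lower at 48 h than at 24 h, where 3.31% and 3.88% of all probe sets were. Those 13 held 10 of the 11 NRP2 probe sets, 2 of SEMA3F and 1 of SEMA7A, and the 3 lower were SEMA4F 210124_x_at and 228660_x_at and PLXNA2 227032_at. PLXNA2 227032_at changed by -0.41 within entinostat and by -0.31 within DMSO, where it did not pass (limma adjusted p = 0.243). Its interaction of -0.10 did not pass either (adjusted p = 0.854). Within DMSO, 0 of 94 differed between 48 h and 24 h in limma, with 8 at an unadjusted p under 0.05 and 0 with a trended and robust prior, where 0.359% of all probe sets did.

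Partner and effector genes of the pathway were read from lists, 1 probe set for each gene, the one of the highest mean. At 24 h 23 of 59 measured genes passed as higher and 6 as lower, and at 48 h 20 passed as higher and 8 as lower. Of all genes read in the same way, 18.2% were higher and 15% lower at 24 h, and 17.3% were higher and 16.6% lower at 48 h, which is the background of each shorter list below. A mean log2 of at least 7 was reached by 6 of 16 co-receptors and partners and 3 of 4 VEGF ligands. It was also reached by 21 of 30 effectors and 8 of 9 collapsin response mediators and kinases. From 7 to 8, 47.3% of all probe sets were called at 24 h and 48.8% at 48 h, and from 8 upward 51.9% and 54.1%. The lists were not compared with genes of like brightness. Among 16 co-receptors and partners, 6 were higher and 1 lower at 24 h, and 5 were higher and 2 lower at 48 h, with a list median of 0.18 and 0.11 (log2). FLT1, the VEGF receptor VEGFR1, averaged 728 ± 91.5 in entinostat and 538 ± 139 in DMSO at 24 h (SD, n = 3 each). At 48 h it averaged 1107 ± 44.4 in entinostat and 344 ± 28.1 in DMSO. Its log2 fold change was 0.46 ± 0.16 at 24 h and 1.69 ± 0.16 at 48 h, with adjusted p = 0.0495 and 5.36e-06 in that order, an interaction of 1.22 ± 0.22 (adjusted p = 0.0275). Its 6 probe sets differed, with log2 fold changes of -0.14 to 0.48 at 24 h and -0.17 to 1.69 at 48 h. The call at 24 h was lost when any single array other than entinostat 24 h replicate 3 or DMSO 24 h replicate 2 was left out (0.24 to 0.63 over the refits), and the interaction without entinostat 24 h replicate 2 or 3, DMSO 24 h replicate 1, entinostat 48 h replicate 1 or 2 or DMSO 48 h replicate 2 or 3, while the call at 48 h held without any single array.

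NRCAM, an adhesion molecule that associates with NRP2, averaged 430 ± 2.45 in entinostat and 155 ± 9.41 in DMSO at 24 h, and 457 ± 15.2 in entinostat and 167 ± 7.69 in DMSO at 48 h, with log2 fold changes of 1.48 and 1.45. The other NRCAM probe set had 0.53 and 0.60. L1CAM, a partner of NRP1, had 1.11 and 1.09, while its other probe set had 0.13 and -0.05. MET, a receptor tyrosine kinase that associates with class B plexins, had 0.91 and 1.13. The 4 MET probe sets ranged from 0.24 to 0.91 at 24 h and from 0.35 to 1.13 at 48 h. PTK7 had 0.27 at 24 h, a call lost when any single array other than entinostat 24 h replicate 1 was left out. KDR, the VEGF receptor VEGFR2, was chosen after its values were seen, and was higher by 1.04 ± 0.09 at 24 h and 0.53 ± 0.09 at 48 h. Among 4 measured VEGF ligands, VEGFA was lower (-0.51 and -0.86), VEGFC was higher (0.35 and 0.53), VEGFB was lower at 48 h (-0.27), and PGF did not pass on its probe set of the highest mean (-0.19 and 0.13). The other PGF probe set had 0.71 and 0.51, and with each gene read from its probe set of the strongest effect 2 of the 4 ligands were higher at each time. At 24 h the VEGFA call was lost without entinostat 24 h replicate 2 or DMSO 24 h replicate 2, and the VEGFC call without entinostat 24 h replicate 1 or 2 or DMSO 24 h replicate 1 or 3.

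Below the plexins, 12 of 30 effectors were higher and 2 lower at 24 h, and 12 were higher and 3 lower at 48 h. RRAS, a GTPase switched off by plexins, had 1.34 and 1.19, and RND2, a small GTPase of neurons, had 1.09 and 1.36. The other RND2 probe set had 0.17 and 0.21. MICAL2, which oxidises actin, averaged 1195 ± 62.1 in entinostat and 1825 ± 254 in DMSO at 24 h, and 703 ± 12.8 in entinostat and 1695 ± 179 in DMSO at 48 h. MICAL2 fell by 0.60 ± 0.10 and by 1.27 ± 0.10 on the log2 scale, an interaction of -0.66 ± 0.14 (adjusted p = 0.0427) that was lost when any single array other than DMSO 24 h replicate 2 or DMSO 48 h replicate 2 was left out. FARP1, a guanine nucleotide exchange factor, had 0.53 and 0.68. The 5 FARP1 probe sets ranged from 0.0001 to 0.53 at 24 h and from 0.10 to 0.68 at 48 h. RHOA had 0.15 at 48 h, a call lost without entinostat 48 h replicate 3 or DMSO 48 h replicate 1 or 3. Among 9 genes of the collapsin response mediators and their kinases, 4 were higher and 2 lower at 24 h, and 2 were higher and 1 lower at 48 h. With the probe set of the strongest effect for each gene, 6 were higher at 24 h and 4 at 48 h. DPYSL4 did not pass on its probe set of the highest mean (-0.18 and -0.25), while its 3 probe sets reached 1.41 at 24 h and 0.75 at 48 h. DPYSL5 was higher at both times (0.82 and 0.69), CRMP1 at 24 h (0.81) with 0.21 at 48 h, which did not pass, DPYSL3 at both (0.49 and 0.46), DPYSL2 at 24 h (0.48), and CDK5R1 was lower at 24 h (-0.36). The 3 DPYSL3 probe sets ranged from 0.03 to 0.49 at 24 h and from 0.03 to 0.46 at 48 h. The other probe set of DPYSL5 had 0.27 and 0.23, and that of CDK5R1 had -0.07 and -0.06. The DPYSL2 call was lost without entinostat 24 h replicate 1, 2 or 3, DMSO 24 h replicate 1 or 2, entinostat 48 h replicate 1 or DMSO 48 h replicate 2, and the CDK5R1 call without entinostat 24 h replicate 1, 2 or 3 or DMSO 24 h replicate 1 or 2.

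**Figure D5:**
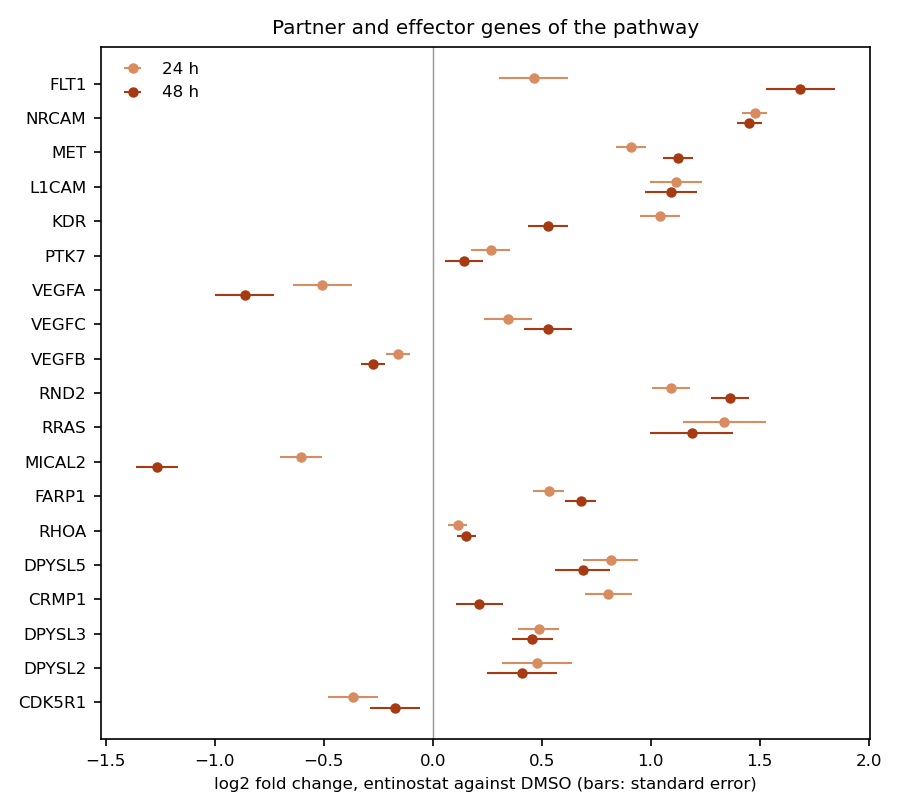
Log2 fold change of 19 partner and effector genes, entinostat against DMSO, at 24 h and 48 h, with bars for the standard error of the limma fit. Each gene is read from its probe set of the highest mean, and other probe sets can differ. NRCAM, L1CAM, RND2 and RRAS lie above 1 at both times, FLT1 lies at 0.46 at 24 h and 1.69 at 48 h, and MICAL2 and VEGFA lie below 0.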

How the data were processed

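RNA of HD-MB03 cells was measured on 12 U133 Plus 2.0 arrays, 3 for each of the 4 groups, which were taken from the labels. The deposited table holds linear intensities made by the authors, and the submitters' processing notes name GCRMA without a version. The lowest intensity is 36.7 and medians lie near 81, so the background appears to be left in. If so, fold changes of dim probe sets would be understated, but the background step could not be settled. The log2 of the deposited intensity was taken with no further normalization. The 62 control probe sets were left out of the tests, 2 empty cells were left missing, 1801 probe sets with several symbols and 11721 with none were tested but not named, and the number of per-sample columns not used is 0. Arrays have no read depth, and 3 arrays for each group limit the precision.

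limma 3.58.1 in R 4.3.3 fitted 1 coefficient for each group over all 12 arrays, with empirical Bayes variance and Benjamini-Hochberg adjustment over 54613 probe sets (adjusted p under 0.05). Contrasts were entinostat against DMSO at 24 h and 48 h, their difference (interaction), and 48 h against 24 h within entinostat and within DMSO. A gene is represented by its single-symbol probe set of the highest mean log2. Values on every array are given for members called with an absolute log2 fold change of at least 1 at either time, for those past the interaction, for the brightest probe set of each class in DMSO at 24 h, and for probe sets of a gene called in opposite directions. From each pathway list up to 4 genes with the largest change among those called and 1 with the smallest are named. The members and lists were chosen with earlier results of these data known. The fit was tested on simulated data. Alternatives were quantile normalization, median-centred arrays, 30 subtracted from every intensity, filters on low intensity, shared probes and fold change, a stricter threshold, other choices of probe set per gene, trended and robust variance, separate fits for each time, the replicate block and leaving out each array. Promoter windows came from a RefSeq table of GRCh38.p14.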

Additional observations from a re-analysis of the deposited data

Results flagged for a closer look

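The effect of entinostat differed between 48 h and 24 h (limma interaction, adjusted over all probe sets) on 13 probe sets. Positive values mean a higher entinostat effect at 48 h. For NRP2 the difference was 1.70 on 222877_at (adjusted p = 3.31e-04), 1.37 on 219367_s_at (0.00166), 1.24 on 223510_at (0.00151), 0.92 on 211844_s_at (0.00408) and 0.75 on 1555468_at (0.00546), and these 5 calls held without any single array. It was 1.35 on 228699_at (adjusted p = 0.0274), 1.07 on 214632_at (0.0205), 0.91 on 229225_at (0.021) and 0.85 on 210841_s_at (0.0333), where the call was lost in 6, 3, 4 and 9 of the 12 refits that leave out an array. These probe sets read the same gene and are not independent.

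For SEMA4F the difference was -0.58 on 210124_x_at (adjusted p = 0.00549), held without any single array, and -0.55 on 228660_x_at (0.0219), lost in 7 of 12. For SEMA3F 35666_at it was 0.50 (0.049) and for SEMA7A 210083_at 0.53 (0.0394), each lost in 11 of 12. Groups of 3 arrays are too small to look for single arrays that stand apart.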

How the results depend on the processing

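Of the named values under the alternatives, 1396 stayed on the same side of the threshold, 89 lost the call and 18 gained it. For 3 called values the sign was opposite, in each case on another probe set of the gene. Values that were not called could change sign, as NRP2 229225_at and PLXNC1 235328_at at 24 h and PLXDC1 240963_x_at at 48 h did without 1 array. The 22 higher probe sets at 24 h became 11 with a mean log2 of at least 7, 9 with an absolute log2 fold change of at least 0.5, and 10 or 13 genes by the probe set of the highest mean or of the strongest effect. The 18 lower ones became 11 without _x_at and _s_at probe sets, 11 with that fold change, and 7 or 8 genes. At 48 h the 27 higher became 14 with a mean log2 of at least 7, and 8 or 10 genes, and the 14 lower became 9 without _x_at and _s_at, and 7 genes by either choice. Leaving out each array gave 17 to 23 higher and 14 to 19 lower at 24 h, and 25 to 28 higher and 12 to 15 lower at 48 h.

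The 13 interaction calls became 6 with 30 subtracted, 8 without _x_at and _s_at, 2 or 3 genes, and 6 at an adjusted p under 0.01. They ranged from 6 to 11 without 1 array, with 6 without DMSO 24 h replicate 1, 7 without entinostat 24 h replicate 2 or 3, and 8 without DMSO 24 h replicate 2, entinostat 48 h replicate 1 or DMSO 48 h replicate 2. The 16 changes within entinostat ranged from 13 to 17 and the 0 within DMSO stayed 0. The cause of these shifts was not tested, beyond fewer features entering a filter. The values of opposite sign on another probe set of the gene included 0.0456 for PLXNB2 at 24 h on 211472_at, which was not called. The others were -0.0486 for PLXND1 at 48 h on 1563657_at, not called, and -0.41 for SEMA7A at 24 h on 210083_at, called lower.

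Whether replicate numbers pair the samples cannot be told, because deviations of arrays with different numbers were not compared. Deviations of same-numbered arrays correlated at 0.0984, 0.3114 and 0.2748 at 24 h and 0.2014, 0.1205 and -0.0647 at 48 h. With the replicate block the counts were 22 higher and 19 lower at 24 h, 27 and 13 at 48 h, and 12 interactions, and it could not be fitted for the comparisons of times. It lost the calls of SEMA3C 203788_s_at at 24 h and of SEMA3D 215643_at and SEMA4D 203528_at at 48 h, and the interaction calls of SEMA3F 35666_at and SEMA7A 210083_at, and gained NRP2 225566_at at 24 h and in the interaction and SEMA5B 223610_at at 48 h. Of the 42 members with a mean log2 under 6.5, 11 were called at 24 h.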
